A study of Mus musculus with 20 samples.

Results

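Fatty acid oxidation and ketogenesis genes were followed through 4 groups of mouse liver tissue. The members were 33 listed genes whose products carry fatty acids into cells and mitochondria, shorten them, or regulate that process. A gene entered where a probe set, the group of short array probes that reads out 1 transcript, had its symbol and no other, and where a gene had several, the brightest on average across the 20 arrays was used. This gave 32 of the 33 members among 18193 measured genes. Acsl1, which activates long-chain fatty acids, was not analysed here. Of the members only Bdh1 makes a ketone body directly.

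Mitochondrial beta-oxidation shortens a fatty acid step by step and passes its electrons to the respiratory chain. Long chains enter the mitochondrion bound to carnitine, and peroxisomes start on very long and branched chains. In liver the acetyl-CoA that results feeds the making of ketone bodies, which other organs burn during fasting. The nuclear receptor PPARalpha switches on many of these genes and is named for its response to agents that make peroxisomes proliferate.

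All mice were male C57BL/6 animals of the genotype conditional APCko, a triggerable loss of Apc, whose product restrains Wnt signalling. Per the protocols they were given 0.75 mg tamoxifen once, when 6 weeks old, and 1 week on were placed on standard chow or on food with 0.05% phenobarbital, a drug that promotes liver tumours in rodents, for 9 months. The series' design text instead names a dose of the carcinogen DEN, a conflict that the labels do not resolve. The 4 groups of 5 arrays were non-tumour liver without phenobarbital (called H2O in its labels, standard chow in the protocols; untreated liver here), non-tumour liver with phenobarbital (phenobarbital liver), carcinomas without phenobarbital and adenomas with phenobarbital. No wild-type mice were analysed here, and the labels do not give the driver of the knockout, whether the arrays of a group came from separate mice, or whether a tumour and a liver sample shared a mouse. P-values therefore measure the spread between these arrays, which may be technical in part. The tumour groups differ in both diet and stage, whose effects cannot be told apart. The labels pair carcinomas with untreated liver and adenomas with phenobarbital liver.

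Values were RMA expression values on a log2 scale, on which a difference of 1 is a 2-fold change. The medians of the arrays lay between 5.52 and 5.63, so a change of all genes at once could not be seen. The labelled tissue was checked with 6 measured hepatocyte markers. Their mean per array was 14.12 to 14.30 in untreated liver, 13.91 to 14.04 in phenobarbital liver and 13.83 to 14.15 in adenomas, but 6.87 to 11.83 in carcinomas. All 6 fell in carcinomas, with a median difference of -4.14, and 0 of 6 passed the test in adenomas (limma; 0 at an unadjusted p under 0.05). Albumin (Alb) read 13.83, 9.18, 13.67, 14.03 and 12.59 on carcinoma arrays 1 to 5, so array 2 stood apart. Markers of stellate cells and fibroblasts rose for 6 of 8 genes in carcinomas (array means 10.60 to 11.51, against 7.53 to 8.55 in untreated liver) and for 4 of 8 in adenomas (7.93 to 9.93, against 7.83 to 8.23 in phenobarbital liver), where 1 fell. Endothelial markers fell for 6 of 7 genes in carcinomas (5.21 to 6.06, against 8.08 to 8.52). In carcinomas 4 of 8 macrophage markers, 4 of 8 of T and NK cells, 4 of 5 of B and plasma cells, 2 of 4 of neutrophils, 1 of 5 of cholangiocytes, 4 of 4 of adipocytes and 3 of 6 of muscle fell. Of the same lists 1 macrophage, 3 T and NK cell, 1 cholangiocyte and 1 muscle marker rose. Over all genes 37.7% fell and 31.5% rose in that comparison, so several of these counts are near the background. In adenomas 2 of 8 macrophage markers rose and 3 fell, 1 of 7 endothelial markers rose and 1 fell, and 1 adipocyte and 1 muscle marker fell, beside 13.5% of all genes that rose and 11.3% that fell. The part of these changes in the results below was not tested, and in whole tissue fewer cells of a type and less RNA per cell cannot be told apart.

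The start regions of 28 listed genes, Acsl1 included, were found in RefSeq (GRCm38.p6), as 31 promoters. In the 250 bases before a start, the letters AGGTCA, the core that nuclear receptors such as PPARalpha read, stood on either strand in 16.1% of these promoters (Acadm, Acadvl, Cpt1a, Echs1 and Slc27a2) and in 14% of all 32851 promoters. The longer AGGTCANAGG, which contains AGGTCA, was found in 1 of the 31, that of Slc27a2, and in 0.56% of all. The full repeat AGGTCANAGGTCA was in 0 of the 31 and in 0.0335% of all. GGGCGG, the GC box, was in 17 of the 31 (54.8%, against 32.7% of all), and TATAAA in 0 (against 12.4%). Printed 5′ to 3′ on the strand of the gene, with the match in capitals, are the 1 promoter with the longer repeat, those of Cpt1a and Acadm with the core (all 3 as the reverse complement), and that of Hadhb with its GC boxes. They lie at chr2:126552774-126553023 on the plus strand (Slc27a2), chr19:3323051-3323300 on the plus strand (Cpt1a), chr3:153944644-153944893 on the minus strand (Acadm) and chr5:30155003-30155252 on the plus strand (Hadhb).
Slc27a2: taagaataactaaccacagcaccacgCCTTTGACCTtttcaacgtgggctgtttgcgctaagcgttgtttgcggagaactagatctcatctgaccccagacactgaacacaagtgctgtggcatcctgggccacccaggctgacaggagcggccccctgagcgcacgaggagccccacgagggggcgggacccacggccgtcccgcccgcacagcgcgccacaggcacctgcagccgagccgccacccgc
Cpt1a: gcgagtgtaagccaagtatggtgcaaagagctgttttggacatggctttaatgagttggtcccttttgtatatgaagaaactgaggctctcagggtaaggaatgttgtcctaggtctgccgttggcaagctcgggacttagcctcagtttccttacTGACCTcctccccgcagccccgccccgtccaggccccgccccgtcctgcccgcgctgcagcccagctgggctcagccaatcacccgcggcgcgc
Acadm: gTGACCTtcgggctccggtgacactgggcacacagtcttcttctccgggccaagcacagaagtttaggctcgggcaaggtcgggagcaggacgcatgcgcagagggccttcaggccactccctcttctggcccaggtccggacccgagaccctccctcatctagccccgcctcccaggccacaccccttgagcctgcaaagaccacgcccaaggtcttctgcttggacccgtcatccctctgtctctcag
Hadhb: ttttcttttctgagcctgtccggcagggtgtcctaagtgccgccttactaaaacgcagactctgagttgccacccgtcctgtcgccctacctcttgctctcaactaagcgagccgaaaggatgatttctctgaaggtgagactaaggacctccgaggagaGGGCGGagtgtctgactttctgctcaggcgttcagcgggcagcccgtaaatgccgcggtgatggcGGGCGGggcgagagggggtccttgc
The match began 224 bases before the start in Slc27a2, 94 in Cpt1a and 249 in Acadm. Those in Hadhb began 90 and 25 bases before it. Hadha, on the minus strand, and Hadhb, on the plus strand, start 273 bases apart on chromosome 5, so the Hadhb sequence lies between the genes of the 2 subunits of 1 enzyme. A match is a description of letters and shows no binding.

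In carcinomas 31 of 32 members were lower than in untreated liver and 1, Ppargc1a, was higher, each past the test (limma, adjusted p under 0.05). Over all genes 37.7% fell and 31.5% rose in the same comparison. That balance turned when dim probe sets were left out, with 4040 of 12036 genes lower and 5269 higher. The median member differed by -1.93 and the median gene by -0.12. At least 2-fold falls were found for 30 members and for 11.4% of all genes. For 29 members every carcinoma lay below every untreated liver, which held for 27.8% of all genes. All 32 passed as well without untreated arrays 3 and 4, or without carcinoma array 2. The members differed widely in depth of fall, from 1.57-fold for Crat to 66.7-fold for Slc27a2. By role, the median difference was -1.57 for the carnitine shuttle, -1.82 for the acyl-CoA dehydrogenases and -4.48 for the peroxisomal genes, and these medians were not tested against each other.

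**Figure D1:**
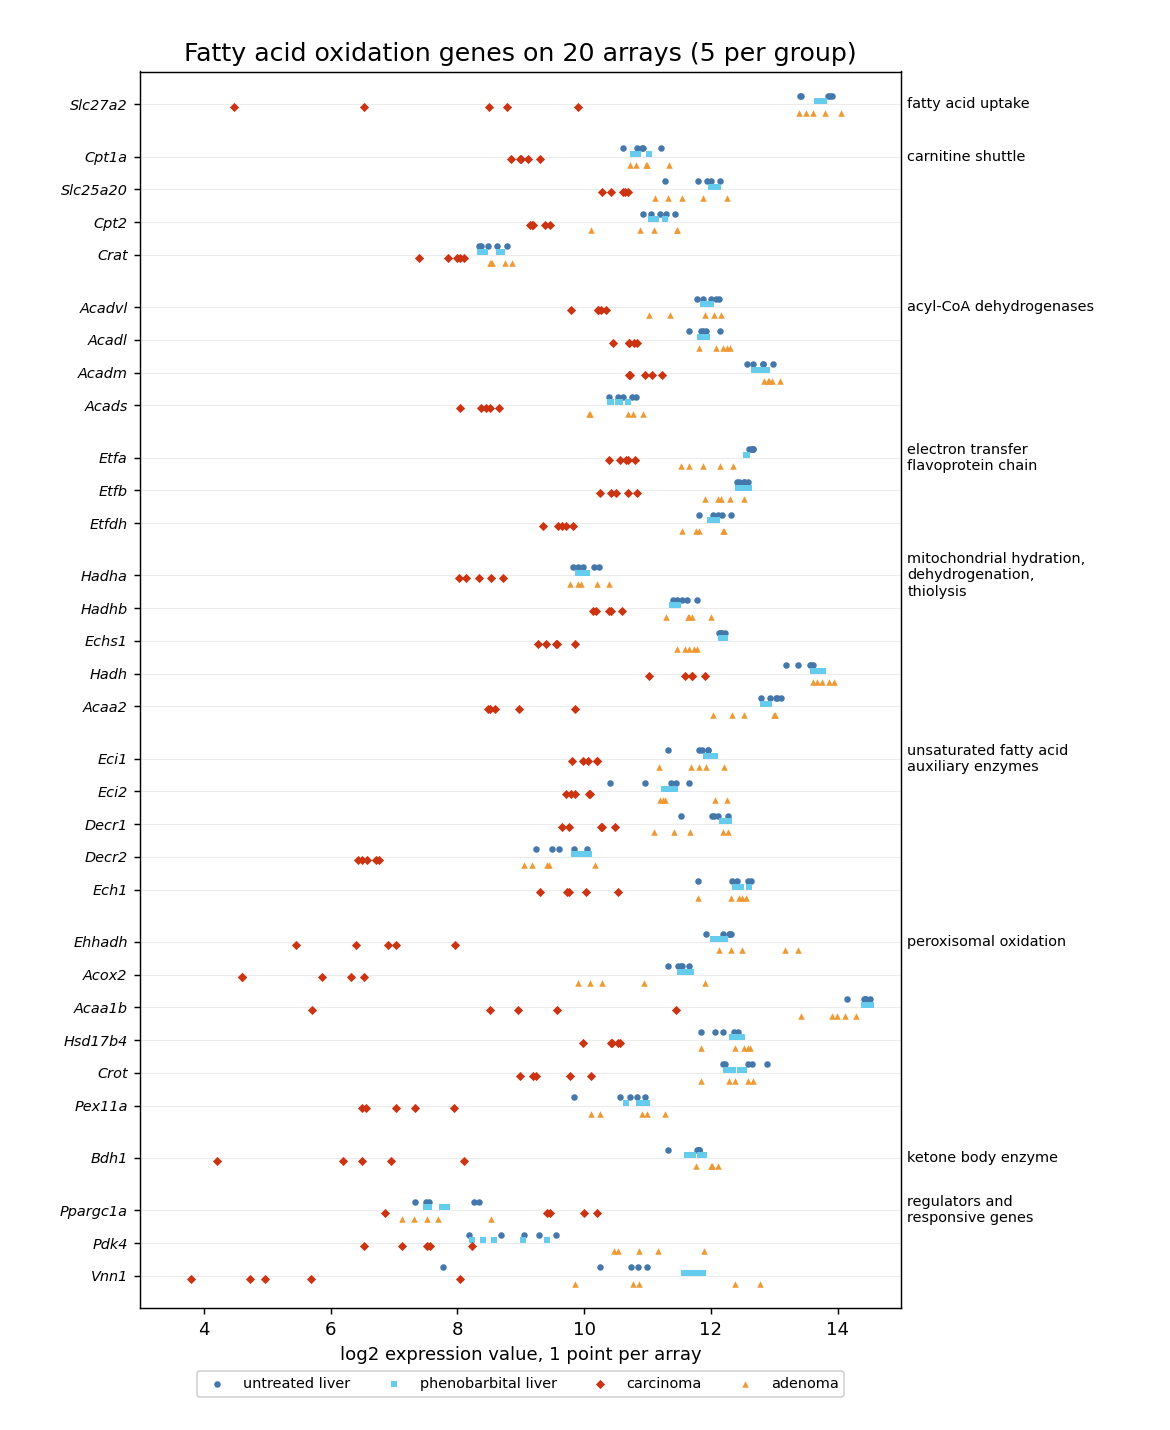
Log2 expression value (horizontal axis) of the 32 members (rows, ordered by role) with 1 point per array and 5 arrays in each of 4 groups. The carcinoma points lie apart to the left for most members, and those of Slc27a2, Acaa1b and Bdh1 are widely spread (SD 2.14, 2.09 and 1.42), while untreated liver and adenoma points overlap for most members.

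Uptake came first in order of the pathway. Slc27a2 encodes a fatty acid transporter of the cell membrane and peroxisome that also activates very long chains. It read 13.85, 13.88, 13.41, 13.43 and 13.92 on untreated arrays 1 to 5 and 9.90, 4.48, 8.50, 8.79 and 6.53 in carcinomas. All 5 carcinomas were lower, and they spread over a wide range. The difference was -6.06 (SE 0.63, adjusted p = 5.6e-08). Without carcinoma array 2 it was -5.27 (adjusted p = 1.2e-09).

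The 4 genes of the carnitine shuttle all fell. Cpt1a, the rate-setting enzyme that joins long-chain fatty acids to carnitine, went from 10.90 ± 0.22 to 9.05 ± 0.17 (SD, n = 5 arrays in each group, as for every mean below). Slc25a20, which carries acylcarnitines across the inner membrane, differed by -1.30 (SE 0.18). Cpt2, which releases the chain inside, read 11.30, 11.20, 10.93, 11.06 and 11.43 in untreated liver and 9.20, 9.18, 9.47, 9.14 and 9.38 in carcinomas. The groups of Cpt2 stood far apart with little spread in either, and the difference was -1.91 (SE 0.19, adjusted p = 2.1e-08). Crat, which moves short chains, differed least, by -0.65 (SE 0.13, adjusted p = 0.0002). The probe set used ends in _x_at, a suffix for probes that can bind related transcripts. With another probe set Crat differed by -0.30 and did not pass (adjusted p = 0.19), and with the mean of all by -0.40 (adjusted p = 0.0092). The remaining probe set, dimmer on average (5.17), differed by -0.27 and did not pass either (adjusted p = 0.12).

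The 4 acyl-CoA dehydrogenases, which take the electrons at the opening step of each cycle and divide the chain lengths among them, fell by 1.19 (Acadl, long chains) to 2.21 (Acads, short chains) on the log2 scale. Acads read 10.82, 10.75, 10.54, 10.40 and 10.61 in untreated liver and 8.46, 8.66, 8.05, 8.51 and 8.38 in carcinomas. No array overlapped, and the SE of the difference was 0.15 (adjusted p = 1.5e-10). Acadvl, for very long chains, differed by -1.81 (SE 0.17) and Acadm, for medium chains, by -1.83 (SE 0.10). The 3 genes of the electron transfer flavoprotein chain, which hands those electrons to the respiratory chain, differed by -2.03 (Etfa), -1.96 (Etfb) and -2.46 (Etfdh). Etfdh, the membrane oxidoreductase at its end, read 12.18, 12.11, 12.03, 11.81 and 12.32 in untreated liver and 9.71, 9.66, 9.59, 9.36 and 9.82 in carcinomas. The lowest untreated array was thus well above the highest carcinoma (SE 0.12, adjusted p = 1.3e-12).

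The 5 genes for the later steps of the mitochondrial cycle fell too. Hadha and Hadhb, the subunits of the trifunctional protein that handles long chains, differed by -1.67 (SE 0.13) and -1.21 (SE 0.11). Echs1, the short-chain hydratase, differed by -2.64 (SE 0.09) and Hadh, the short-chain 3-hydroxyacyl-CoA dehydrogenase, by -1.88 (SE 0.13). Acaa2, the thiolase that cuts off acetyl-CoA, had the greatest difference of the 5. It read 13.03, 13.04, 12.94, 12.80 and 13.11 in untreated liver and 9.86, 8.49, 8.60, 8.97 and 8.52 in carcinomas. Carcinoma array 1 was the highest of its group but still well below untreated liver, and the difference was -4.09 (SE 0.22, adjusted p = 2.4e-12). For Hadhb and Acadl the difference was -0.79 and -0.72 when all probe sets of the gene were averaged, still past the test. A dimmer probe set of each gene did not pass by itself (limma). That of Hadhb (mean level 6.35) differed by -0.09 (adjusted p = 0.65) and that of Acadl (3.83) by -0.24 (adjusted p = 0.096).

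Unsaturated fatty acids need auxiliary enzymes that move or remove double bonds. Eci1 and Eci2, the isomerases, differed by -1.73 (SE 0.15) and -1.26 (SE 0.22), Decr1, the mitochondrial reductase, by -1.91 (SE 0.20) and Ech1, an isomerase of dienoyl-CoA, by -2.48 (SE 0.19). Decr2, the peroxisomal reductase, read 9.84, 9.60, 9.50, 9.25 and 10.05 in untreated liver and 6.72, 6.50, 6.57, 6.44 and 6.76 in carcinomas. The carcinomas of Decr2 were tightly grouped, with an SD of 0.14, the smallest of any member in that group, and the difference was -3.05 (SE 0.17, adjusted p = 5.7e-12).

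The 6 peroxisomal members fell by 1.79 to 5.92 on the log2 scale. Acox2, the oxidase for branched chains and bile acid precursors, read 11.49, 11.65, 11.32, 11.54 and 11.53 in untreated liver and 6.53, 4.61, 5.87, 6.32 and 4.60 in carcinomas. Untreated liver was tight while carcinomas 2 and 5 sat well below the other 3, and the difference was -5.92 (SE 0.36, adjusted p = 2.2e-11). Ehhadh, the bifunctional enzyme of the straight-chain route, differed by -5.45 (SE 0.32) and Acaa1b, a peroxisomal thiolase, by -5.55 (SE 0.61). Acaa1b has a close paralog, Acaa1a, and probes may not separate them. Pex11a, which takes part in peroxisome division, differed by -3.51 (SE 0.27) and Crot, the peroxisomal carnitine octanoyltransferase, by -3.04 (SE 0.19). Averaging the probe sets of Crot gave -1.92, still past the test. Hsd17b4, the bifunctional enzyme of the branched-chain route, fell least, from 12.18 ± 0.24 to 10.39 ± 0.24. RMA values of dim genes are compressed, so folds that end near the lower limit of the values, 2.67, may be understated.

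Bdh1, the enzyme that interconverts acetoacetate and 3-hydroxybutyrate, read 11.82, 11.82, 11.78, 11.32 and 11.81 in untreated liver and 8.10, 4.21, 6.49, 6.95 and 6.20 in carcinomas. All carcinomas were lower, and array 2 was again the lowest. The difference was -5.32 (SE 0.42, adjusted p = 1e-09), or 39.9-fold, and without carcinoma array 2 it was -4.77 (adjusted p = 5.9e-12).

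**Figure D2:**
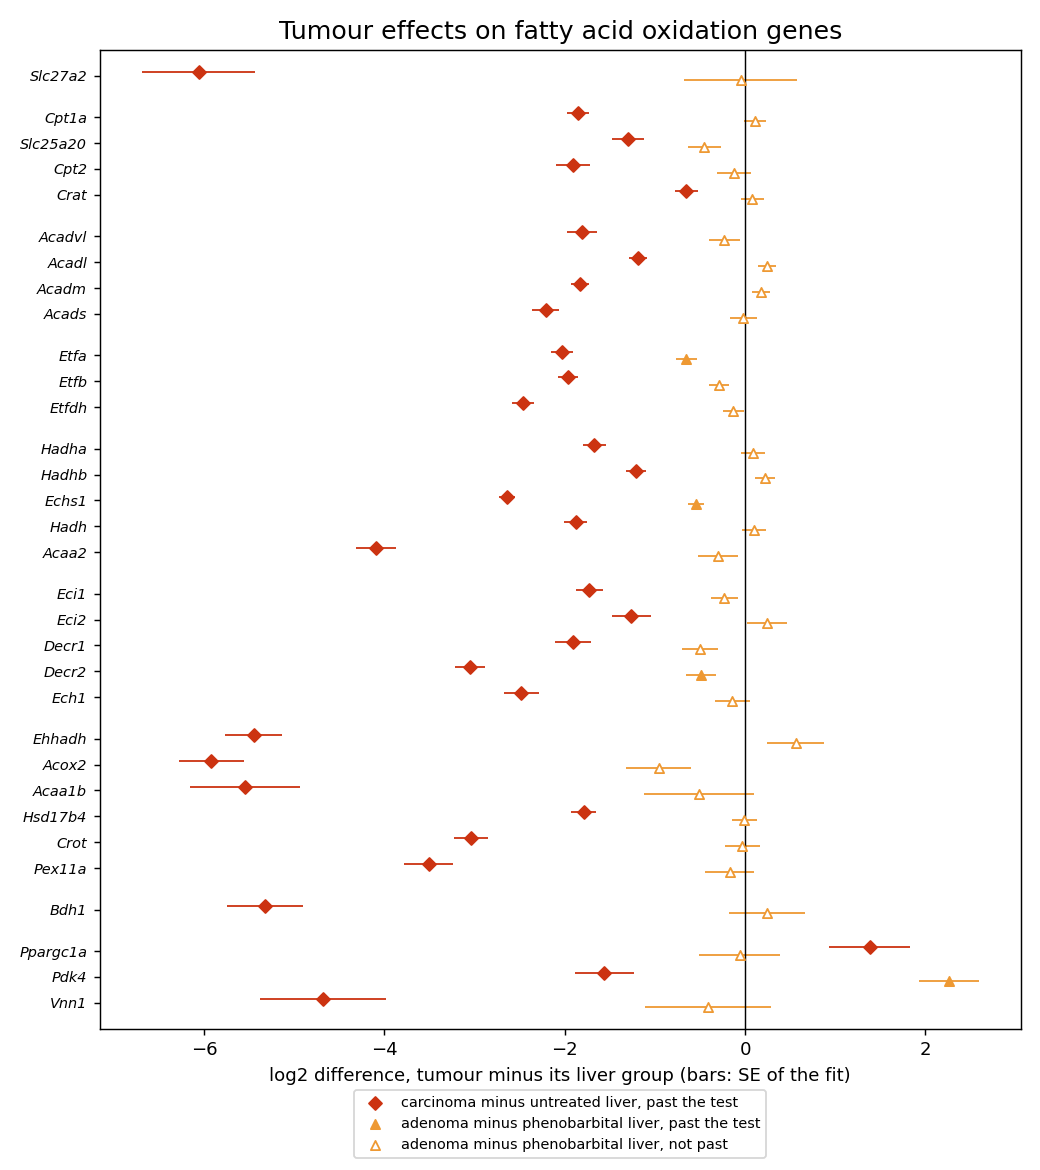
Log2 difference of each tumour group from its liver group (horizontal axis) for the 32 members (rows, by role); bars are the SE of the fit, filled symbols passed the test and open ones did not. Carcinoma differences run from -6.06 to 1.38 and adenoma differences from -0.96 to 2.26. Several members lie on opposite sides of 0, but only Pdk4 passed the test on both sides.

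The 3 regulators and responsive genes did not move as a group. Ppargc1a, a coactivator that drives mitochondrial gene expression, read 7.50, 7.33, 8.27, 8.35 and 7.56 in untreated liver and 6.86, 10.00, 10.20, 9.41 and 9.46 in carcinomas. Carcinomas 2 to 5 lay above all untreated arrays and carcinoma 1 below them. The difference was 1.38 (SE 0.45, adjusted p = 0.01), and 1.97 without carcinoma array 1 (adjusted p = 2.0e-06). All 5 probe sets of the gene rose, by 0.97 to 1.83. Pdk4, the kinase that turns off pyruvate dehydrogenase and spares glucose, read 8.69, 8.19, 9.29, 9.56 and 9.06 in untreated liver and 7.13, 7.53, 6.53, 8.23 and 7.57 in carcinomas. The highest carcinoma just overlapped the lowest untreated array, and the difference was -1.56 (SE 0.33, adjusted p = 0.00032). Vnn1, a pantetheinase that is a known PPARalpha target, read 10.74, 10.85, 10.25, 7.78 and 11.00 in untreated liver and 8.04, 3.80, 4.97, 5.69 and 4.73 in carcinomas. Untreated array 4 and carcinoma 1 overlapped, and the difference was -4.68 (SE 0.70, adjusted p = 7.7e-06).

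In adenomas most members were near the level of phenobarbital liver. Past the test were 4 of 32 members (24.7% of all genes passed), 3 lower and 1 higher, while 11.3% of all genes fell and 13.5% rose. The median member differed by -0.09 and the median gene by -0.03, with 21 members below 0 and 11 above. A member that did not pass is not thereby shown to be equal. The SE of each gene comes from 1 spread shared by the 4 groups, so a wide spread in carcinomas also widens the SE in adenomas. For Acaa1b every adenoma lay below every phenobarbital liver, but the difference of -0.51 (SE 0.61, adjusted p = 0.6) did not pass. It passed when only the groups compared were fitted (adjusted p = 0.021).

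Pdk4 was the 1 member that rose. It read 8.40, 8.58, 9.03, 8.23 and 9.41 on phenobarbital liver arrays 1 to 5 and 11.90, 10.54, 10.86, 11.16 and 10.48 in adenomas. Every adenoma lay above every phenobarbital liver, and the difference was 2.26 (SE 0.33, adjusted p = 4.7e-05), or 4.78-fold. The fall in carcinomas and the rise in adenomas both passed, and Pdk4 was the only member for which the tumour types went past the test in opposite directions.

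Etfa, the alpha subunit of the electron transfer flavoprotein, read 12.56, 12.57, 12.56, 12.56 and 12.57 in phenobarbital liver and 12.35, 11.87, 11.65, 11.53 and 12.14 in adenomas. The adenomas were all lower and far more spread than phenobarbital liver, and the difference was -0.65 (SE 0.12, adjusted p = 0.00051). Echs1 read 12.23, 12.17, 12.23, 12.16 and 12.16 in phenobarbital liver and 11.60, 11.79, 11.65, 11.47 and 11.73 in adenomas. All adenomas were lower here as well, by -0.54 on average (SE 0.09, adjusted p = 0.00022). Decr2 read 9.85, 10.00, 10.08, 9.96 and 9.84 in phenobarbital liver and 10.18, 9.42, 9.44, 9.05 and 9.18 in adenomas. Adenoma 1 lay above all phenobarbital liver arrays and the other 4 below, and the difference was -0.49 (SE 0.17, adjusted p = 0.041). That call ended when any 1 phenobarbital liver array or adenoma array 2, 3, 4 or 5 was left out (-0.52 to -0.39, adjusted p 0.056 to 0.11).

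Members near the threshold included Acox2, with -0.96 (SE 0.36, adjusted p = 0.061), the largest adenoma difference below 0. It passed without adenoma array 5 (-1.28, adjusted p = 0.0072) and without carcinoma array 1, 2 or 5, which only change the shared spread (-0.96, adjusted p = 0.044 to 0.045). Etfb (-0.29, adjusted p = 0.06) passed without adenoma 3 (-0.38) or carcinoma 1 or 4, Slc25a20 (-0.45, adjusted p = 0.074) without adenoma 1 (-0.61) or untreated liver 4, and Decr1 (-0.50, adjusted p = 0.084) without adenoma 1 or 3 (-0.61 and -0.63). Acadl (0.24) and Hadhb (0.22) passed with a positive difference without adenoma 5 and adenoma 4, at 0.32 and 0.31. Cpt1a, at 10.97 ± 0.24 in adenomas and 10.86 ± 0.10 in phenobarbital liver, and Bdh1, at 11.99 ± 0.13 and 11.75 ± 0.11, did not pass. Slc27a2 was 13.68 ± 0.27 in adenomas and 13.73 ± 0.04 in phenobarbital liver.

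Phenobarbital in non-tumour liver moved no member past the test (0 of 32, limma; 0.225% of all genes passed). At an unadjusted p under 0.05 there was 1 member, Vnn1, beside 5.88% of all genes. Vnn1 read 11.83, 11.74, 11.68, 11.87 and 11.58 in phenobarbital liver against 7.78 to 11.00 in untreated liver. All 5 phenobarbital arrays were higher, the difference was 1.62 (SE 0.70) and the adjusted p was 0.78. Without untreated array 4 it was 1.03. Apart from Vnn1 the member differences ranged from -0.23 to 0.30. The groups also did not overlap for Hadh (all higher, 0.21, SE 0.13) and Etfa (all lower, -0.09, SE 0.12). With Vnn1, 2 members were thus all higher and 1 all lower, beside 442 and 413 of all 18193 genes. The SE here too comes from the spread shared by the 4 groups. With only the 2 liver groups fitted, 193 genes rose and 85 fell past the test, and still 0 members passed.

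The tumour types differed directly. Adenomas were above carcinomas for 31 of 32 members, and below for Ppargc1a (-1.55), all past the test, while 33.7% of all genes were higher and 28.7% lower (4136 and 4789 of 12036 genes without dim probe sets). The labels give adenomas and carcinomas different control livers, so the adenoma effect minus the carcinoma effect was also tested. It was positive and past the test for 31 of 32 members (23.2% of all genes), from 0.73 (Crat) to 6.01 (Slc27a2 and Ehhadh), with a median of 1.99 over all 32. For Pdk4 it was 3.82 (SE 0.46, adjusted p = 1.1e-06). For Ppargc1a it was -1.44 (SE 0.63, adjusted p = 0.068), and without carcinoma array 1 it was -2.03 (adjusted p = 0.00012), without adenoma array 2 -1.67 (adjusted p = 0.038) and without untreated arrays 3 and 4 -1.78 (adjusted p = 0.045). It also passed with array weights (-1.58, adjusted p = 0.017). Of the 4 other probe sets of Ppargc1a, 2 passed (-1.75 and -1.96, adjusted p = 0.033 and 0.016) and 2 did not (-0.88 and -1.10, adjusted p = 0.2 and 0.15). Both comparisons share their carcinoma arrays with the comparison to untreated liver, where the median member differed by -1.93. The median member differed by 0.01 between the 2 livers and by -0.09 between adenomas and their liver. The 2 comparisons are thus no separate support for the fall in carcinomas.

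Arrays of 1 group also differed among themselves. The median SD of the members was 0.19 in untreated liver, 0.07 in phenobarbital liver, 0.26 in carcinomas and 0.33 in adenomas, against 0.17, 0.14, 0.21 and 0.23 over all genes. Untreated array 4 was the lowest of its group for 25 of 32 members and array 5 the highest for 23. Adenoma array 4 was the lowest for 21. Within carcinomas array 1 was the highest for 19 members, and the peroxisomal genes had SDs of 0.24 to 2.09. For Slc27a2, Acaa1b, Ehhadh, Bdh1 and Vnn1 the order was alike: carcinoma array 2 was lowest and array 1 highest. This did not hold for the members at large: array 2 was the lowest carcinoma for 6 of 32 and the highest for 7. Array 3 was the lowest most often, for 10. Without carcinoma array 2 the difference from untreated liver was -4.77 for Acaa1b, -5.12 for Ehhadh and -4.27 for Vnn1. Albumin was lowest on array 2 as well, and its part in the spread was not tested.

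**Figure D3:**
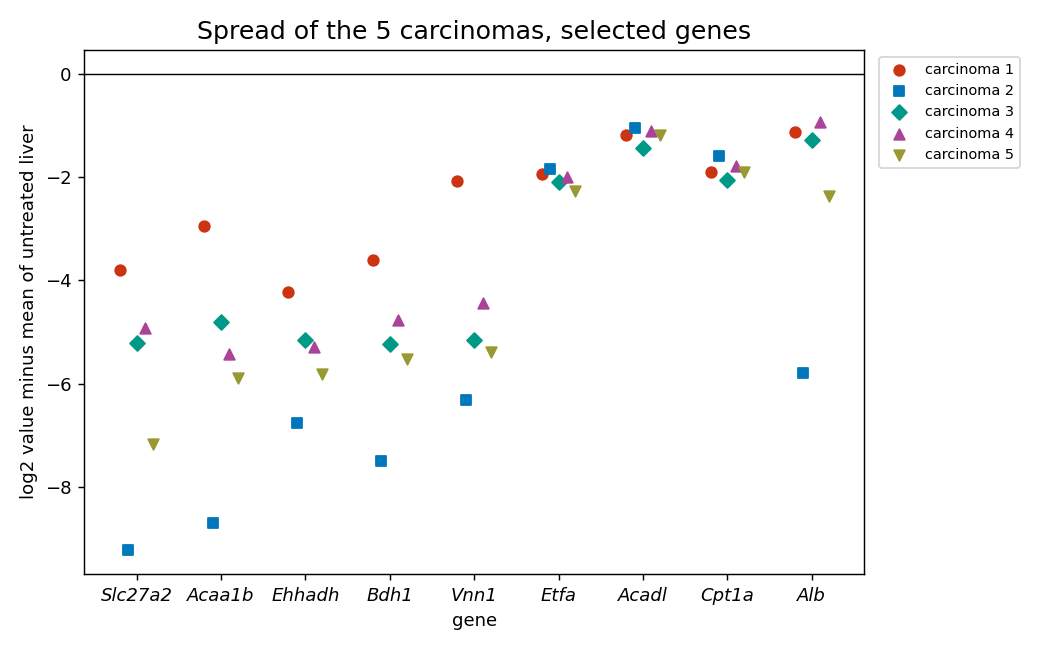
Log2 value of each of 5 carcinoma arrays minus the mean of untreated liver (vertical axis) for 8 members and albumin (Alb), with 1 symbol per array. Carcinoma 2 is the lowest for Slc27a2, Acaa1b, Ehhadh, Bdh1, Vnn1 and Alb. For Etfa, Acadl and Cpt1a the 5 arrays lie close together and carcinoma 2 is the highest.

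A wider list of 84 genes of the same processes was read beside the members, and 76 of them were found under their listed symbol and so measured here. In carcinomas 63 fell, 5 rose and 8 did not pass, with a median of -1.91, beside 37.7% of all genes that fell, 31.5% that rose and a median gene at -0.12. In adenomas 28 fell, 8 rose and 40 did not pass, with a median of -0.26, beside 11.3% of all genes that fell, 13.5% that rose and a median gene at -0.03. The number that rose in adenomas was thus no larger than the share of all genes gives. In phenobarbital liver 0 of 76 passed (limma; 6 at an unadjusted p under 0.05), beside 0.225% and 5.88% of all genes, and these counts are near the shares of all genes. The counts of the single lists below stand beside the same shares, and lists of few genes near them are given as descriptions.

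In the ketone body list 3 of 5 measured genes fell and 1 rose in carcinomas, a split not far from that of all genes (37.7% and 31.5%). Oxct1, the enzyme that starts the use of ketone bodies and that hepatocytes hardly make, read 6.82, 6.19, 7.62, 8.29 and 6.12 in untreated liver and 11.06, 11.37, 10.48, 10.72 and 11.10 in carcinomas. Untreated arrays 3 and 4 were the highest of their group, and all carcinomas lay above them. The difference was 3.94 (SE 0.31, adjusted p = 8.2e-10). In adenomas Oxct1 rose by 1.21 (SE 0.31, adjusted p = 0.0066). Bdh2, a cytosolic dehydrogenase first described as acting on 3-hydroxybutyrate, fell in both tumour types, to 4.48 ± 0.20 from 9.08 ± 0.38 in carcinomas and to 4.89 ± 0.23 from 8.91 ± 0.15 in adenomas. Bdh1 and Bdh2 thus both fell in carcinomas, while in adenomas Bdh1 differed by 0.24 (SE 0.42) and Bdh2 by -4.02 (SE 0.16). The SE of Bdh1 carries the spread of the carcinomas (SD 1.42, against 0.13 in adenomas and 0.11 in phenobarbital liver). Slc16a1, a transporter of lactate and ketone bodies, fell by 3.05 in carcinomas and rose by 1.26 in adenomas. In adenomas 2 of the 5 fell and 3 rose (11.3% and 13.5% of all genes). The other fall was that of Acat1, a mitochondrial thiolase that acts on acetoacetyl-CoA, by 0.64 on the log2 scale (SE 0.17, adjusted p = 0.0084).

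**Figure D4:**
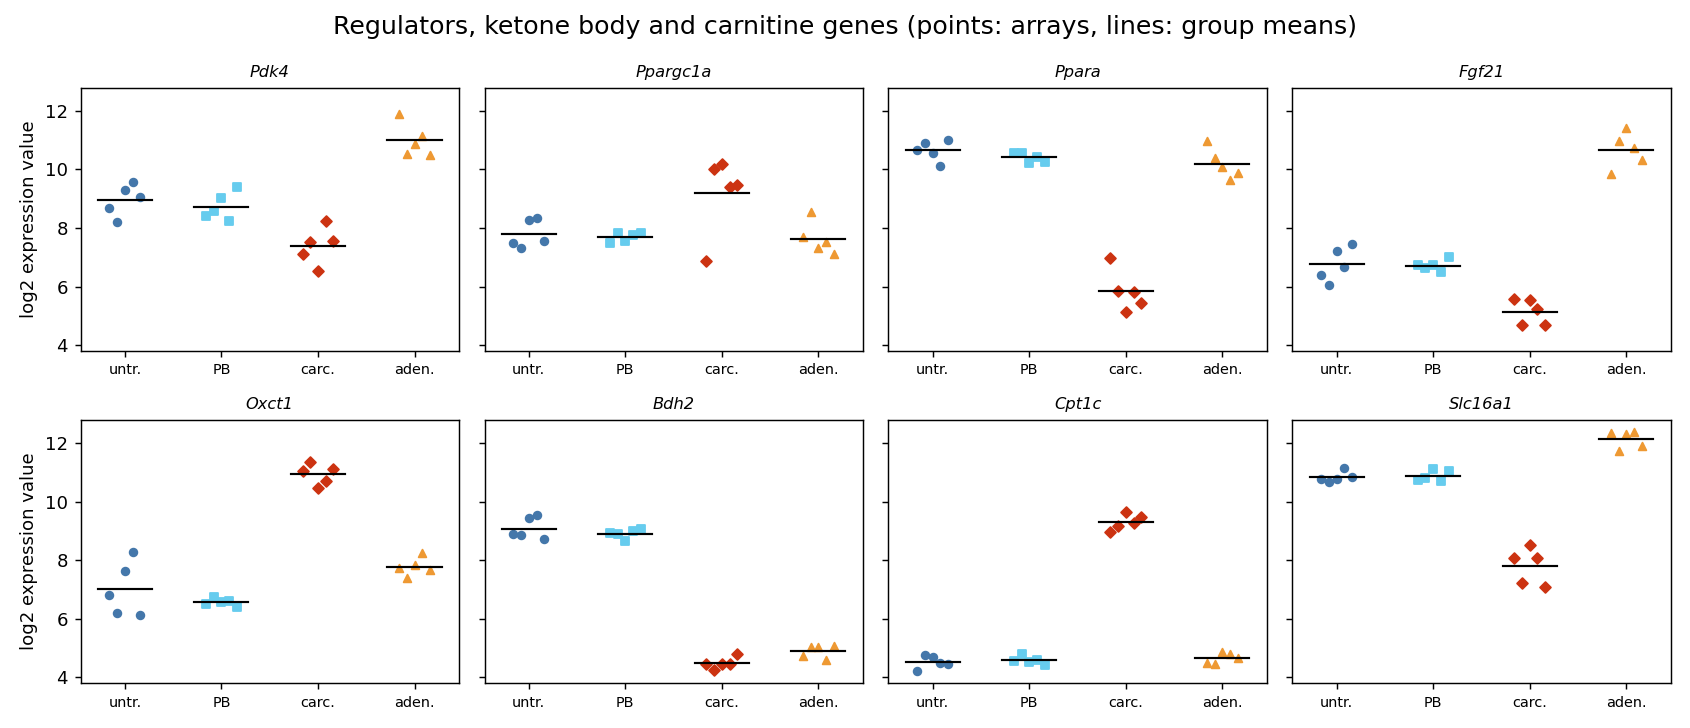
Log2 value (vertical axis) of 2 members (Pdk4 and Ppargc1a) and 6 other pathway genes, 1 panel per gene and 1 point per array, with lines at the mean of 5 arrays; untr. is untreated liver, PB phenobarbital liver, carc. carcinoma and aden. adenoma. Ppara is low in carcinomas alone, Bdh2 in both tumour groups, and Fgf21 is high in adenomas.

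Among PPARalpha and other regulators 11 of 14 fell and 1 rose in carcinomas (37.7% and 31.5% of all genes). Ppara itself read 10.67, 10.90, 10.56, 10.11 and 11.01 in untreated liver and 6.97, 5.86, 5.14, 5.83 and 5.44 in carcinomas. No array overlapped, and the difference was -4.80 (SE 0.28, adjusted p = 9.8e-12). In adenomas Ppara was 10.20 ± 0.51 against 10.41 ± 0.17 in phenobarbital liver and did not pass (adjusted p = 0.64). Rxra, the receptor that pairs with PPARalpha, differed by -2.83 (SE 0.15) in carcinomas and 0.03 (SE 0.15) in adenomas. Nr1h4, the bile acid receptor, fell in carcinomas by 4.98 and in adenomas by 1.02 on the log2 scale. Pdk3, a relative of Pdk4, rose by 2.43 in carcinomas. Fgf21, a fasting hormone that PPARalpha induces, read 6.75, 6.62, 6.74, 6.51 and 7.00 in phenobarbital liver and 9.86, 10.96, 11.42, 10.73 and 10.33 in adenomas. It thus rose in adenomas by 3.94 (SE 0.28, adjusted p = 9.9e-09), while in carcinomas it fell by 1.62 (SE 0.28). In adenomas 6 of the 14 fell (11.3% of all genes), with Acacb (-1.31) and Pdk1 (-1.28) lowest.

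Of 14 other mitochondrial genes, 13 fell in carcinomas and 10 in adenomas (37.7% and 11.3% of all genes). In adenomas Pcca and Pccb, the subunits of propionyl-CoA carboxylase, which clears the remnant of odd chains, differed by -1.73 and -1.32 (SE 0.15 each), and the median of the 14 was -0.73. In carcinomas Acad11 (-3.02) and Ivd (-2.05) had the largest falls. Cpt1c, a brain relative of Cpt1a, rose there. It read 4.22, 4.75, 4.68, 4.50 and 4.46 in untreated liver and 8.96, 9.18, 9.65, 9.27 and 9.49 in carcinomas. The rise was 4.78 (SE 0.13, adjusted p = 2.8e-16), while in adenomas Cpt1c differed by 0.07 (SE 0.13).

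Of 20 other peroxisomal genes, all 20 fell in carcinomas and 8 in adenomas (37.7% and 11.3% of all genes). Hacl1, which splits branched chains during alpha-oxidation, differed by -4.88 in carcinomas and -1.58 in adenomas. Nudt7, a coenzyme A hydrolase, differed by -4.71 in carcinomas, and Pecr, a peroxisomal enoyl-CoA reductase, by -1.54 in adenomas. Among 17 synthetases and thioesterases 12 fell and 1 rose in carcinomas (37.7% and 31.5% of all genes). Slc27a5, which activates bile acids, and Acsm1, for medium chains, differed by -6.45 and -6.02, and Acss1, a mitochondrial acetyl-CoA synthetase, by 2.80. In adenomas Acsl4, which prefers arachidonate, and Acot2, a mitochondrial thioesterase, rose by 1.63 and 1.33, and Acss2 and Acsl5 differed by -0.73 and -0.44, both past the test. The Acsl5 call ended without phenobarbital liver array 3 or 5 or adenoma array 4 or 5 (-0.41 to -0.36, adjusted p 0.057 to 0.064).

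Of 6 lipolysis genes, 4 fell and 1 rose in carcinomas, and 2 rose in adenomas. Over all genes 37.7% fell and 31.5% rose in carcinomas and 13.5% rose in adenomas, so these small counts are not far from the background. Lpl, which frees fatty acids from circulating fat and is scarce in adult hepatocytes, rose in both, by 1.73 (SE 0.30) in carcinomas and 2.97 (SE 0.30) in adenomas. Pnpla2, the lipase that opens fat droplets, rose by 0.89 in adenomas. Mgll, which cleaves monoglycerides, and Lipa, the lysosomal acid lipase, differed by -3.98 and -2.53 in carcinomas.

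**Figure D5:**
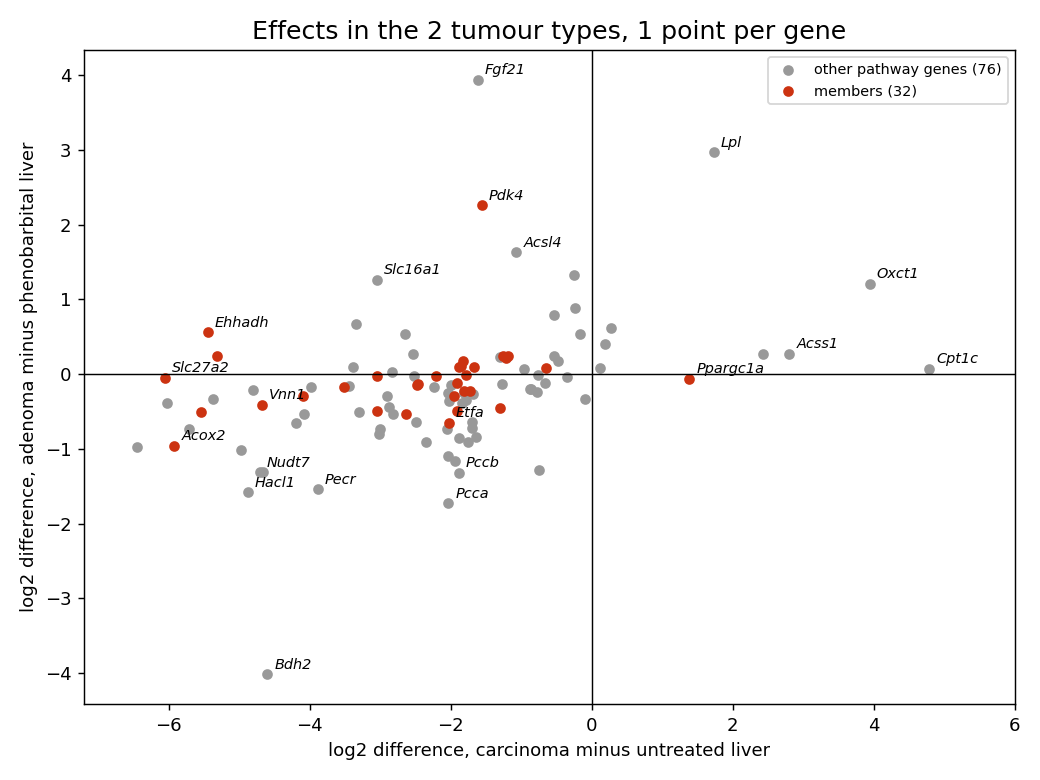
Log2 difference of carcinomas from untreated liver (horizontal axis) against that of adenomas from phenobarbital liver (vertical axis), 1 point per gene, for the 32 members and 76 other pathway genes; the comparisons share no arrays. Most members lie to the left near 0 on the vertical axis, with Pdk4 above (2.26), and Bdh2 lies low in both directions (-4.60 and -4.02).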

How the data were processed

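Per the labels' protocols, Trizol was used to extract RNA from snap-frozen tissue, and the 3'IVT Express kit added biotin before Affymetrix arrays were run. The authors deposited log2 expression values made with RMA, per the submitters' processing notes, which give no version. The table held 45037 probe sets on 20 arrays, from 2.67 to 15.1. The number of arrays limits the precision. Probe sets with a single symbol (34945, of which 34741 matched the RefSeq gene table of GRCm38.p6) were used, while 932 had several symbols and 9160 none. Of the 32 members, 16 had several probe sets. Their 24 other probe sets shared the sign of the one used in all 24 cases for carcinomas and in 18 for adenomas. Of the 24, 20 passed the test in carcinomas and 2 in adenomas, and none passed in the opposite direction. The 2 in adenomas were 1 of Acaa2 (-0.75, limma, adjusted p = 0.0083) and a dim 1 of Crot (mean level 5.06, -0.46, adjusted p = 0.014). With the probe sets used, these 2 members did not pass in adenomas (-0.30 and -0.03).

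Groups were taken from the labels. Genes were tested with limma 3.58.1 (lmFit and eBayes, two-sided) in R 4.3.3, in 1 fit of 18193 genes over the 4 groups, with 16 residual and 3.21 prior degrees of freedom. P-values were adjusted by Benjamini-Hochberg within each comparison at a threshold of 0.05. The script was tested on simulated data. Differences are the tumour group minus its liver group. Tables and plots were made in Python 3.11.15 with pandas 2.3.3, numpy 2.4.6 and matplotlib 3.10.9.

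The members and lists were chosen with earlier results of these data known. Values on every array were given for the member of each role with the largest carcinoma difference, for members that rose in a tumour comparison and for those with opposite tumour effects. From each wider list up to 2 largest rises and 2 largest falls past the test were named for each tumour comparison, with Ppara. Rxra, Etfa, Echs1 and the per-array values of Decr2 in adenomas, Vnn1 with phenobarbital, Oxct1, Fgf21 and Cpt1c were added after their values were seen. Some genes of the wider list and of the marker lists are not reported here. Mut is the older symbol of Mmut, which was measured. The counts of the lists hold only genes found under their listed symbol. Promoters of Crat, Acaa2, Decr1, Hsd17b4 and Vnn1 were not used here. Alternatives were a filter at log2 6, other rules for probe sets, eBayes with trend and robust settings, median centring, quantile normalization, array weights, a replicate block, only the groups compared, and arrays left out singly or together. The same alternatives for the wider list were chosen after seeing the data.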

Additional observations from a re-analysis of the deposited data

Results flagged for a closer look

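An array lay far from the other 4 of its group in 14 of 244 combinations of a gene and a group, over 61 genes, where chance flags about 1 in 20. Among members the lowest array was at 11.32 for Eci1, 14.15 for Acaa1b, 11.32 for Bdh1 and 7.78 for Vnn1 on untreated array 4, where the other 4 arrays of Vnn1 read 10.25 to 11.00. It was at 12.00 for Slc25a20 on phenobarbital liver array 5, at 9.80 for Acadvl and 9.98 for Hsd17b4 on carcinoma array 3, and at 6.86 for Ppargc1a on carcinoma array 1. Among other pathway genes the low arrays were 10.12 for Acsm1 on adenoma array 4, 10.56 for Acss2 on adenoma array 3, 6.96 for Pdk3 on carcinoma array 3 and 13.17 for Slc27a5 on untreated array 3. The high arrays were 10.10 for Nudt7 on carcinoma array 1 and 5.74 for Pdk3 on phenobarbital liver array 1.

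The effect in adenomas differed from that in carcinomas, as a difference of the 2 effects past the test (limma), for 31 members. It rests on the same carcinoma arrays as the falls above, so it is no separate support for them. The difference was 6.01 for Slc27a2, 1.96 for Cpt1a, 0.84 for Slc25a20, 1.79 for Cpt2, 0.73 for Crat, 1.57 for Acadvl, 1.43 for Acadl, 2.01 for Acadm, 2.20 for Acads and 1.37 for Etfa. It came to 1.66 for Etfb, 2.33 for Etfdh, 1.76 for Hadha, 1.43 for Hadhb, 2.10 for Echs1, 1.97 for Hadh, 3.79 for Acaa2, 1.50 for Eci1, 1.50 for Eci2 and 1.41 for Decr1. For the rest it was 2.56 for Decr2, 2.34 for Ech1, 6.01 for Ehhadh, 4.96 for Acox2, 5.04 for Acaa1b, 1.78 for Hsd17b4, 3.02 for Crot, 3.33 for Pex11a, 5.56 for Bdh1, 3.82 for Pdk4 and 4.27 for Vnn1. The difference also passed for 27 of the 29 named genes of the wider list. Those genes were named for large differences in the comparisons that make up this one, so their passing is no separate support. Of the 76 measured genes of that list, 62 passed above 0 and 4 below, beside 4229 and 4269 of all 18193 genes. For Bdh2 the call ended in 13 alternatives (adjusted p up to 0.18), for Pccb in 9 and for Lpl in 2. Among the named genes the difference was 3.35 for Acacb, 2.22 for Acad11, 1.85 for Acat1, 1.58 for Acot2, 2.70 for Acsl4, 2.44 for Acsl5, 5.62 for Acsm1, -2.54 for Acss1 and 2.28 for Acss2. It was 0.58 for Bdh2, -4.71 for Cpt1c, 5.56 for Fgf21, 3.30 for Hacl1, 1.31 for Ivd, 2.80 for Lipa, 1.23 for Lpl, 3.80 for Mgll and 3.96 for Nr1h4. Beside these it was 3.40 for Nudt7, -2.73 for Oxct1, 0.57 for Pccb, -2.17 for Pdk3, 2.35 for Pecr, 1.13 for Pnpla2, 4.59 for Ppara, 4.31 for Slc16a1 and 5.47 for Slc27a5.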

How the results depend on the processing

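Counts of members past the test stayed within 1.5 times of the reported count in each comparison and alternative run. They were 31 to 32 of 32 for carcinomas, 3 to 6 for adenomas, 32 for adenomas against carcinomas, 31 to 32 for the difference of effects and 0 for phenobarbital. Leaving out single arrays gave the same ranges, except 32 throughout for carcinomas. No member reversed a call. Arrays of the same replicate number in different groups had correlations of deviations from the group mean between -0.115 and 0.131. For untreated liver and adenomas these were all positive (0.023 to 0.131), while pairs of unlike number ran from -0.131 to 0.122. Such small values cannot settle whether arrays of 1 number shared a mouse. With a replicate block the adenoma count was 6, adding Etfb (-0.29, adjusted p = 0.041) and Slc25a20 (-0.45, adjusted p = 0.037), and no other member call changed. In adenomas Decr2 lost its call in 12 alternatives, with adjusted p of 0.056 to 0.11, among them median centring (-0.46), array weights (-0.41) and only the groups compared (-0.49); the cause was not tested. Acaa1b passed when only the groups compared were fitted (-0.51, adjusted p = 0.021). Acox2 passed in 7 alternatives (0.0072 to 0.048). The median of all genes in carcinomas was -0.18 with centring, -0.10 with quantile normalization and 0.15 after dim probe sets were left out. Among other pathway genes, 66 to 70 passed in carcinomas and 32 to 38 in adenomas. With the mean of all its probe sets, Pdk1 in adenomas against carcinomas turned from 0.06 (adjusted p = 0.83) to -0.69 (adjusted p = 0.0037), lost its carcinoma call (-0.14, adjusted p = 0.5) and passed in the difference of effects (-1.06, adjusted p = 0.0028); the cause was not tested. The difference of effects lost its call for Bdh2 in 13 alternatives (0.051 to 0.18), Pccb in 9 (0.053 to 0.072) and Lpl in 2 (0.06 to 0.093). Fitting only the groups compared was not run for the difference of effects, which needs all 4.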
